A study of Homo sapiens with 60 samples.

Results

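The NF-kB feedback and chemokine genes described here are NFKBIA, TNFAIP3, NFKB1, NFKB2, RELB, BIRC3, ICAM1, CXCL1, CXCL2 and CXCL8, 10 of the 60675 genes in the deposited count table, found by matching Ensembl identifiers to these symbols. Bulk RNA was sequenced from HepG2 cells, an established line from a human liver carcinoma, after 24 h with each agent, in 60 libraries that fall into 20 groups with 3 replicates each. The vehicle group is labelled 0.1% DMSO, and the positive control received 10 µM wortmannin, which inhibits phosphoinositide 3-kinases. The other 18 groups received hot water extracts of Poria Cocos, Atractylodis Rhizoma, Glycyrrhizae Radix, Panax Ginseng, Angelicae Gigantis Radix or Paeoniae Radix at 20, 100 or 500 µg/mL; the short names used are Poria, Atractylodes, licorice (Glycyrrhizae Radix), ginseng, angelica and then peony (Paeoniae Radix). The text of the series gives 2% DMSO for the vehicle, while no DMSO is named for wortmannin or extract libraries. A code in the sample labels puts Poria and Atractylodes in one set, licorice and ginseng in another, angelica and peony in the last, and vehicle and wortmannin apart from all of these, and its meaning is not given. All comparisons with vehicle share the same 3 vehicle libraries, so a difference in set or in DMSO cannot be told apart from treatment there, whereas comparisons between doses of an extract, or between extracts of a set, stay within a set. Whether replicates are separate cultures is not stated, so p-values measure the spread between these libraries, which may be technical. The labels name no added cytokine in any group, and all values come from 1 tumour line.

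NF-kB is a family of dimeric transcription factors that inhibitor proteins hold in the cytoplasm until a kinase complex marks the inhibitor for destruction. In the canonical branch, tumour necrosis factor, interleukin-1 or microbial products release dimers that contain RELA and p50, the product of NFKB1. In the non-canonical branch, receptors such as those for lymphotoxin beta, CD40 ligand and TWEAK stabilise the kinase NIK, the precursor encoded by NFKB2 is processed to p52, and p52 enters the nucleus with RELB. The target genes include the pathway's own inhibitors, which end the response, and in liver cells adhesion molecules and chemokines that draw leukocytes into the tissue.

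The stretches of 250 bases upstream of the annotated starts of 7 of the genes are shown. Of these genes 5 hold letters of kB, the binding motif of NF-kB, and did not move alike. ICAM1 and CXCL8 moved in Poria and hold no match to the strict kB pattern searched in this window, but each holds a near match. Sequences and starts are from RefSeq on GRCh38.p14, read 5′ to 3′ on the gene's strand. Capitals mark kB matches on either strand, merged where they overlap, or, in CXCL8, a match to the AP-1 motif TGANTCA, which does not overlap a kB match.
NFKBIA upstream, chr14:35404750-35404999, minus strand: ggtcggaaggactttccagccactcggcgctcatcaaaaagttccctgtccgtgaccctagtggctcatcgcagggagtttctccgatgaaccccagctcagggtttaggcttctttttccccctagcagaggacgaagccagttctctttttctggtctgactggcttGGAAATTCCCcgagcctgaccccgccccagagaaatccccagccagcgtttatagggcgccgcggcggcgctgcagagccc
TNFAIP3 upstream, chr6:137867009-137867258, plus strand: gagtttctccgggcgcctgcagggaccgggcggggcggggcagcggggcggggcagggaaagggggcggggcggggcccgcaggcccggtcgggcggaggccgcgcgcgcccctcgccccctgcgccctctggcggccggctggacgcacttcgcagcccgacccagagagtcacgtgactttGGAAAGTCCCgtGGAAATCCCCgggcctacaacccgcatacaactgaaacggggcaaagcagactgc
NFKB2 upstream, chr10:102394328-102394577, plus strand: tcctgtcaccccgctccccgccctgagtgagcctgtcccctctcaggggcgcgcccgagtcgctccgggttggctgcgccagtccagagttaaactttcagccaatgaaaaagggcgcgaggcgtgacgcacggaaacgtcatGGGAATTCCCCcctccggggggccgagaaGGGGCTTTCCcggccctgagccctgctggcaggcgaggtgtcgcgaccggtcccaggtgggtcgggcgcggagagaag
BIRC3 upstream, chr11:102317234-102317483, plus strand: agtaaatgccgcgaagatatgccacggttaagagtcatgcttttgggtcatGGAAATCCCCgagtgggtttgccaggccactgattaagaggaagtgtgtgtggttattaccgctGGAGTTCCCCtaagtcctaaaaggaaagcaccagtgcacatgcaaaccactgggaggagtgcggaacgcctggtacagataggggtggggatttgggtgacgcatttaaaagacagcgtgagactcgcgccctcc
ICAM1 upstream, chr19:10270870-10271119, plus strand: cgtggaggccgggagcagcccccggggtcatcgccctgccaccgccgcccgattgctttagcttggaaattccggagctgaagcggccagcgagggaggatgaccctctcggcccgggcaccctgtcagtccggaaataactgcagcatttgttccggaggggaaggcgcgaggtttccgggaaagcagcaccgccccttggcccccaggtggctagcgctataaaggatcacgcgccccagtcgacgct
CXCL8 upstream, chr4:73740319-73740568, plus strand: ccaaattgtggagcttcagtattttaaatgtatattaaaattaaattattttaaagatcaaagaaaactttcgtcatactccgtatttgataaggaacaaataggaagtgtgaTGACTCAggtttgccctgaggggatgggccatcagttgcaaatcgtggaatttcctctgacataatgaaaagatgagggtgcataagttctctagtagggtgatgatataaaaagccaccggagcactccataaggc
CXCL2 upstream, chr4:74099196-74099445, minus strand: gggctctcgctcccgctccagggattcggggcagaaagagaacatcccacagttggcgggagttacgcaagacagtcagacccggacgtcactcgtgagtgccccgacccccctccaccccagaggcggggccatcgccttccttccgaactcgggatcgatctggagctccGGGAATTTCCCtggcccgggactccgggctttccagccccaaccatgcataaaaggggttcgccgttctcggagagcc
Of the 10 genes, 9 had an entry, and RELB had none. NFKB2 has 3 annotated starts in this table, and the one shown has the most kB matches, at 3 positions; the window of the first start, chr10:102393860-102394159, has 0 and that of the last, chr10:102395455-102395754, has 2. NFKB1 has 2 starts, with a match at 1 position for the first and 0 for the other. Over windows of 300 bases that run from 250 before to 50 after a start, 7 of these 9 genes had a kB match in at least 1 window. Counted by window, 5.91% of all 35116 windows had one. These shares are in unlike units, since some genes have more than 1 window, and the share of all genes was not taken. CXCL8 was the 1 gene of the 9 with an AP-1 match, found from -137 to -131 counted so that -1 is the base before the start, and 7.71% of all windows had one. CXCL2 and its close paralog CXCL1 both carried the kB letters GGGAATTTCC, at -78 to -69 and -79 to -70. A match of letters is a description of the sequence and does not show that a protein binds there. Nor does the lack of a strict match show that no kB site is present. CXCL8 holds tggaatttcc, which differs from the GGGAATTTCC of CXCL2 in its first letter, and ICAM1 holds tggaaattcc, a near match as well.

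Libraries held between 20.9 M and 33.4 M counts, and 26.1 M at the median, so that 3 counts, the limit that a count of 0 allows, correspond to 0.0899 to 0.144 CPM, counts scaled to 1 M per library. Hepatocyte markers were high in all groups, with ALB between 10814 and 15788 CPM as group means. Of the blood cell markers, PTPRC and MS4A1 had 0 counts in all 60 libraries, while group means ran from 1341 to 2483 CPM for LYZ, from 42.7 to 73.5 for CD68 and from 2.21 to 4.16 for CD14. Of the endothelial markers PECAM1 ran from 1.35 to 2.03 CPM and VWF from 0.523 to 1.48. Of the fibroblast and stellate markers ACTA2 ran from 36.0 to 74.2 CPM and COL1A1 from 0.176 to 0.482. The other 9 markers of these 3 lists, TEK, DCN and LUM among them, stayed at or below 0.306 CPM in all group means.

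In vehicle the 10 genes covered a wide range of levels. On the scale of CPM per kilobase of exon, NFKBIA, which encodes the inhibitor IkB alpha, was highest at 47.3 ± 1.99 (mean ± SD, n = 3). ICAM1, an adhesion molecule for leukocytes, followed at 25.4 ± 0.405, and TNFAIP3, the deubiquitinase A20, at 11.3 ± 0.133. The subunit genes NFKB1 and NFKB2 stood at 7.10 ± 0.300 and 5.03 ± 0.263 CPM per kilobase. CXCL8, the neutrophil chemokine interleukin-8, reached 2.20 ± 0.109 CPM per kilobase. RELB lay at 1.45 ± 0.0217 and BIRC3, the ubiquitin ligase cIAP2, at 0.909 ± 0.0838. The neutrophil chemokine CXCL2 was at 0.649 ± 0.146 and CXCL1 at 0.112 ± 0.0272 on this scale. The vehicle libraries of neighbours in this order did not overlap for any of the 9 neighbouring pairs. CXCL1 had 213 counts over all 60 libraries, 0 to 9 in each and 0 in 4 libraries, and did not pass the filter on low counts, so that 9 of the 10 genes were tested. RSEM divides reads between similar sequences, so the split of reads between CXCL1 and CXCL2 is uncertain.

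The genes also differed in how far they varied over the 20 groups. The ratio of the highest to the lowest group mean was 1.36 for NFKB1, 1.52 for TNFAIP3, 1.52 for NFKBIA, 1.68 for NFKB2, 1.74 for CXCL8, 1.85 for ICAM1, 2.09 for BIRC3, 2.26 for RELB and 2.30 for CXCL2. NFKB2, RELB, BIRC3, ICAM1 and CXCL8 each had their highest mean in Poria at 500 µg/mL, and in each of these 5 the 3 libraries of that group lay above those of the group next in order. NFKBIA had its lowest mean in the same group. TNFAIP3 was highest in wortmannin and lowest in licorice at 500 µg/mL, and NFKB1 was highest in licorice at 20 µg/mL and lowest in wortmannin. The lowest groups of TNFAIP3 and NFKB1 did not overlap their neighbours. The libraries of the other ends named here did: NFKBIA in Poria at 500 µg/mL overlapped Poria at 100, TNFAIP3 in wortmannin overlapped angelica at 500, and NFKB1 in licorice at 20 overlapped Poria at 500. Most of the order is not resolved: of the 19 neighbouring pairs of groups in the order of each gene, the libraries overlapped in 14 for ICAM1, in 17 for TNFAIP3 and NFKB2, in 18 for NFKBIA, NFKB1, RELB, BIRC3 and CXCL8, and in all 19 for CXCL2 and CXCL1. The group means of CXCL1 ran from 0.0605 CPM in angelica at 100 µg/mL to 0.237 in angelica at 500, and it enters no test below.

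**Figure D1:**
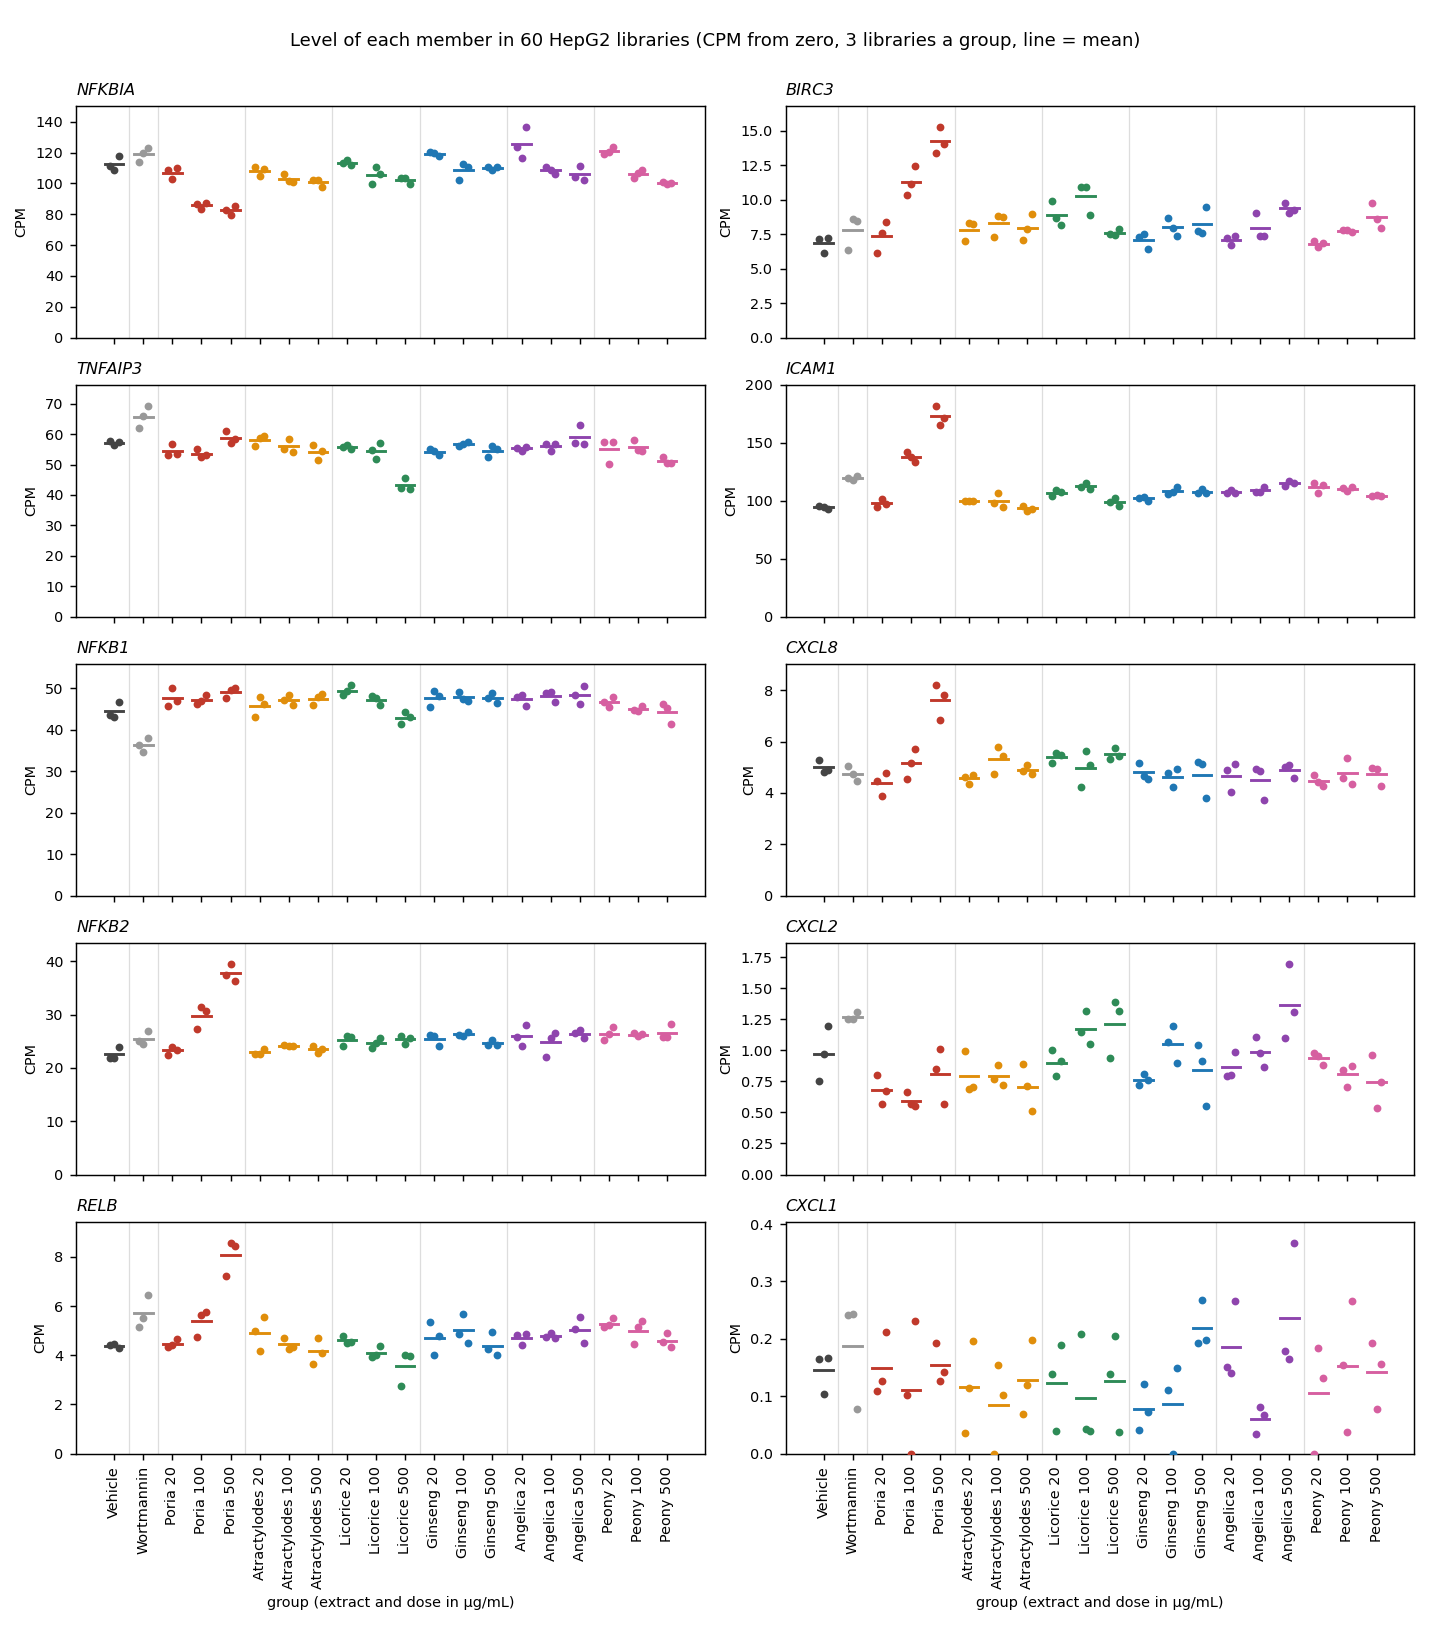
Level of the 10 genes in CPM (vertical axes, from 0) in each of 60 libraries (points) of 20 groups (horizontal axis), with the mean of 3 libraries as a line. NFKB2, RELB, BIRC3, ICAM1 and CXCL8 are highest in Poria at 500 µg/mL, where NFKBIA is lowest at 82.4 ± 2.86 CPM, and TNFAIP3 is lowest in licorice at 500 µg/mL at 43.3 ± 1.98 CPM.

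The largest called change over dose was in the Poria extract, which divided the feedback genes. Between 20 and 500 µg/mL, the non-canonical subunits NFKB2 and RELB, the ubiquitin ligase BIRC3, the adhesion molecule ICAM1 and the chemokine CXCL8 rose 1.6- to 1.9-fold, while the inhibitor NFKBIA fell. Of the 9 genes tested, 6 rose and 1 fell, beside 43.5% (22.3% higher and 21.2% lower) of all 16093 genes called. The median log2 change of the 9 genes was 0.70, and that of all genes tested was -0.01. All changes below are log2 differences ± SE from edgeR's quasi-likelihood test with Benjamini-Hochberg adjustment over all genes, and the dose trend compares 500 with 20 µg/mL.

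Among the inhibitors, NFKBIA measured 109, 103 and 109.7 CPM in the 3 libraries at 20 µg/mL of Poria, 86.5, 83.6 and 87.6 at 100 and 82.6, 79.5 and 85.2 at 500. All libraries at 100 and 500 µg/mL lay below all at 20 and below the vehicle libraries, which measured 111, 108 and 118. The dose trend was -0.38 ± 0.043 (adjusted p = 4.05e-10). TNFAIP3, which removes ubiquitin chains that carry the signal, measured 53.0, 56.6 and 53.4 CPM at 20 µg/mL and 61.0, 57.04 and 58.3 at 500. Its groups did not overlap but lay close, and the trend of 0.11 ± 0.046 passed narrowly (adjusted p = 0.0449). That call was lost without Poria 500 replicate 1 (adjusted p = 0.228), Poria 500 replicate 3 (0.0707), Poria 20 replicate 1 (0.155) or Poria 20 replicate 3 (0.124), and TNFAIP3 at 500 µg/mL did not pass against vehicle (0.04, adjusted p = 0.461). The trend of TNFAIP3 also did not pass with only the libraries compared in the fit (adjusted p = 0.103) or by a regression on log dose (0.117).

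The subunit genes did not move alike. NFKB1 measured 45.8, 49.98 and 46.8 CPM at 20 µg/mL and 47.7, 49.6 and 49.9 at 500, groups that overlapped, and its trend of 0.04 ± 0.044 did not pass (adjusted p = 0.443, 95% interval -0.04 to 0.13). NFKB2 measured 22.4, 23.9 and 23.4 CPM at 20 µg/mL, 27.3, 31.4 and 30.7 at 100 and 37.4, 39.5 and 36.4 at 500. The 3 doses of Poria did not overlap in NFKB2, which rose by 0.70 ± 0.055 (adjusted p = 2.18e-15), 1.62-fold. RELB measured 4.34, 4.40 and 4.65 CPM at 20 µg/mL, 4.75, 5.63 and 5.76 at 100 and 7.21, 8.58 and 8.46 at 500. All 3 libraries at 500 µg/mL were above all others of Poria, and RELB rose by 0.86 ± 0.11 (adjusted p = 7.79e-09). NFKB2 and RELB, which encode the partners of the non-canonical dimer, thus both rose over the doses of Poria, and NFKB1 did not pass.

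BIRC3, which encodes a ubiquitin ligase that acts at tumour necrosis factor receptors and in the degradation of NIK, measured 6.12, 7.57 and 8.41 CPM at 20 µg/mL of Poria, 10.4, 11.1 and 12.4 at 100 and 13.4, 15.3 and 14.0 at 500. Its doses did not overlap, and the trend of 0.96 ± 0.11 was the largest among the 9 genes (adjusted p = 1.42e-10). ICAM1 measured 94.4, 102 and 97.2 CPM at 20 µg/mL, 142, 138 and 133 at 100 and 182, 165 and 172 at 500, beside 95.6, 94.5 and 92.6 in vehicle. Its doses did not overlap, and it rose by 0.82 ± 0.037 from 20 to 500 µg/mL (adjusted p = 1.79e-24) and had the smallest p of the 9 genes. Antisense genes overlap ICAM1 (LIMASI and ICAM4-AS1) and TNFAIP3 (WAKMAR2). The library kit keeps strand, but how strand was used in counting is not given in the sources used here.

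The chemokines parted as well. CXCL8 measured 4.45, 3.90 and 4.77 CPM at 20 µg/mL of Poria, 4.54, 5.18 and 5.72 at 100 and 8.22, 6.84 and 7.80 at 500, on 89 to 213 counts per library over the whole series. The libraries at 500 µg/mL lay above all others of Poria, while those at 100 overlapped those at 20 and those of vehicle (5.29, 4.82 and 4.91), and the trend was 0.81 ± 0.11 (adjusted p = 1.84e-08). CXCL2 measured 0.802, 0.570 and 0.676 CPM at 20 µg/mL and 0.849, 1.01 and 0.567 at 500, groups that overlapped, and its trend of 0.26 ± 0.24 did not pass (adjusted p = 0.434, 95% interval -0.22 to 0.75). With 12 to 41 counts per library, the interval of CXCL2 also holds the change seen in NFKB2. CXCL1 measured 0.109, 0.127 and 0.211 CPM at 20 µg/mL and 0.193, 0.127 and 0.142 at 500, near the level of 3 counts. CXCL1 was not tested, and a difference between these doses was not detectable at this depth.

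Other measures were also followed over the doses of Poria. The summed level of the 8 blood cell markers ran from 1682 to 1873 CPM in the libraries at 20 µg/mL and from 2242 to 2769 at 500, almost all of it LYZ, beside 1326 to 1474 in vehicle. PTPRC, which marks all leukocytes, had 0 counts in each of these libraries. The share of counts from mitochondrial genes was 11.9% at 20 µg/mL, 12.7% at 100, 12.6% at 500 and 11.04% in vehicle as group means. The libraries at 20 µg/mL (10.99 to 12.76%) overlapped those at 500 (11.58 to 13.10%) in this share. The shallowest library of the series, Poria 100 replicate 1 with 20.9 M counts, also had the highest mitochondrial share of these groups at 15.2%. The summed fibroblast and stellate markers, nearly all ACTA2, ran from 62.7 to 65.7 CPM at 20 µg/mL and from 34.8 to 37.3 at 500, while DCN and LUM stayed at or near 0. The part of these measures in the changes was not tested. The libraries are bulk RNA, in which more cells with a transcript and more transcript per cell cannot be told apart.

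Against vehicle, the calls in Poria were already present in part at 100 µg/mL. At 500 µg/mL 6 of the 9 genes were higher and 1 lower, beside 47.6% (23.9% higher and 23.7% lower) of all genes called. BIRC3 was higher by 1.06 ± 0.11 (adjusted p = 5.57e-12), RELB by 0.88, ICAM1 by 0.88, NFKB2 by 0.74, CXCL8 by 0.61 and NFKB1 by 0.14, and NFKBIA was lower with -0.45. At 100 µg/mL 4 genes were higher and 2 lower, beside 30.5% (15.1% higher and 15.3% lower) of all genes. NFKBIA had already reached -0.39 and ICAM1 0.55 there. BIRC3 stood at 0.73 and NFKB2 at 0.41 at that dose. The calls of RELB (0.30 ± 0.12, adjusted p = 0.0458) and of CXCL2, which was lower with -0.71 ± 0.24 (adjusted p = 0.0293), were narrow. RELB did not pass without any 1 of Vehicle replicates 1, 2 or 3 or Poria 100 replicates 2 or 3 (adjusted p = 0.0854, 0.0772, 0.104, 0.149 and 0.139 in that order). CXCL2 did not pass without any 1 of Vehicle replicates 2 or 3 or Poria 100 replicates 2 or 3 (adjusted p = 0.0544, 0.189, 0.0953 and 0.0939 in that order). At 20 µg/mL of Poria edgeR called 0 of the 9 genes, beside 3.8% of all genes, with 2 at an unadjusted p under 0.05. DESeq2 called 0 of the 8 to which it gave an adjusted p.

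**Figure D2:**
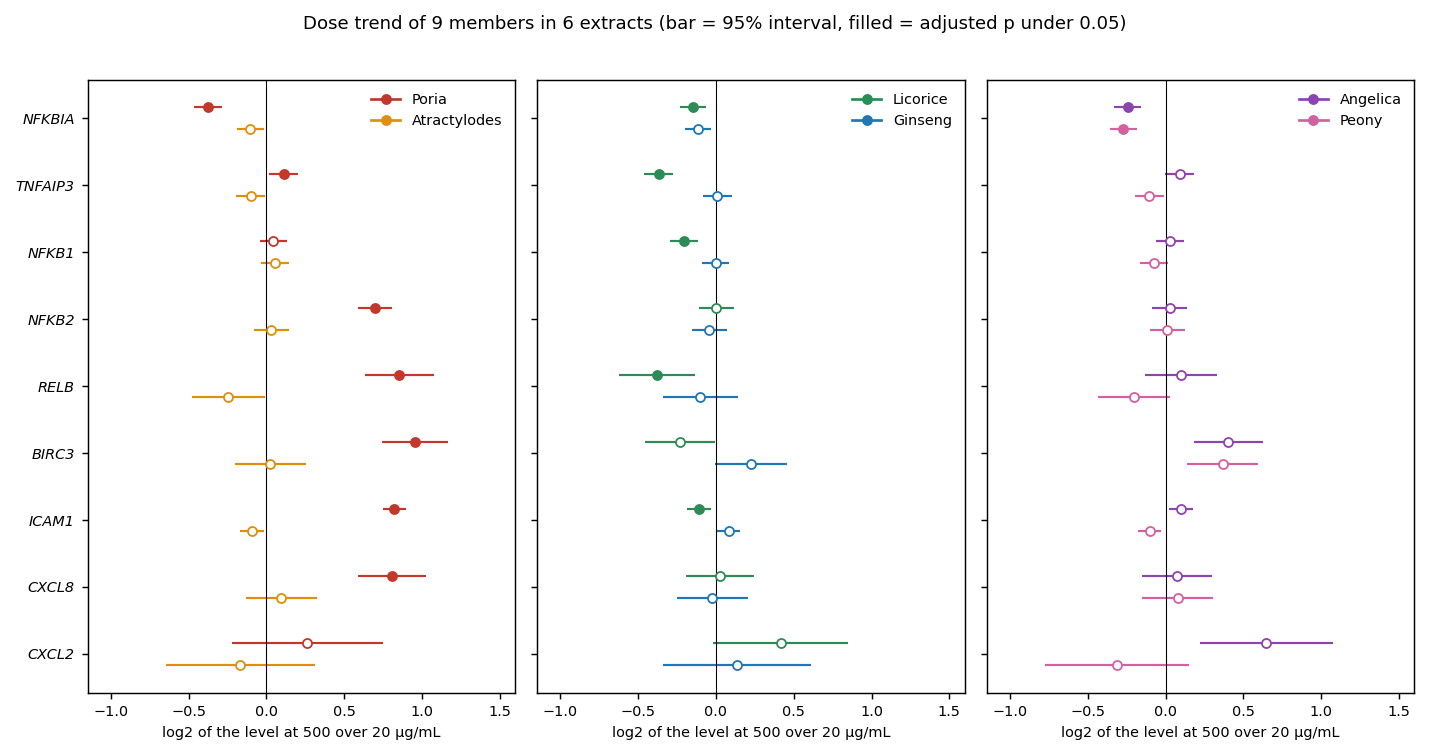
Dose trend of 9 genes (rows) in 6 extracts, as the log2 ratio of 500 to 20 µg/mL (horizontal axis) with its 95% interval, filled where the adjusted p is under 0.05; each panel holds the extracts of a set. BIRC3 reaches 0.96 in Poria, the filled points of licorice all lie below 0, and NFKBIA lies below 0 in each of the 6 extracts.

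In licorice the tested genes called over dose all fell. Between 20 and 500 µg/mL of licorice 5 of the 9 genes fell and 0 rose, beside 21.3% (10.3% lower) of all genes called. The genes that fell were the inhibitors TNFAIP3 and NFKBIA, the subunits NFKB1 and RELB, and ICAM1. TNFAIP3 measured 55.9, 56.3 and 55.2 CPM at 20 µg/mL, 54.6, 51.7 and 57.2 at 100 and 42.4, 45.5 and 41.9 at 500. All 3 libraries at 500 µg/mL were below all other libraries of licorice and below vehicle (57.6, 56.3 and 57.3), and the trend was -0.37 ± 0.047 (adjusted p = 2.13e-08). NFKB1 measured 48.2, 49.2 and 50.8 CPM at 20 µg/mL and 41.4, 44.2 and 43.0 at 500. These groups did not overlap, with a trend of -0.21 ± 0.044 (adjusted p = 0.000355), but the libraries at 500 µg/mL overlapped vehicle (43.6, 43.1 and 46.6).

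The other 3 falls in licorice were each lost without some single library. NFKBIA measured 113, 115 and 112 CPM at 20 µg/mL and 104, 103 and 99.6 at 500, without overlap (-0.15 ± 0.043, adjusted p = 0.0081), and missed the threshold without Licorice 500 replicate 3 (adjusted p = 0.0516). RELB measured 4.80, 4.50 and 4.56 CPM at 20 µg/mL and 2.74, 4.01 and 3.98 at 500, where replicate 1 was the lowest of all 60 libraries. Its trend of -0.38 ± 0.12 (adjusted p = 0.0191) became -0.21 (adjusted p = 0.274) without Licorice 500 replicate 1, and did not pass without Licorice 20 replicate 1 (adjusted p = 0.0733). RELB also did not pass with only the libraries compared in the fit (adjusted p = 0.091) or by a regression on log dose (0.062). ICAM1 measured 104, 109 and 107 CPM at 20 µg/mL and 99.1, 102 and 95.6 at 500, and its trend of -0.11 ± 0.037 (adjusted p = 0.0274) did not pass without Licorice 500 replicate 1 (0.0644) or 3 (0.172) or Licorice 20 replicate 2 (0.115) or 3 (0.0759). With only the libraries compared in the fit ICAM1 had adjusted p = 0.0976, and by a regression on log dose 0.193. The other 4 trends in licorice did not pass, at 0.42 for CXCL2, 0.03 for CXCL8, -0.23 for BIRC3 and 0.00 for NFKB2.

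BIRC3 had a different course in licorice. It measured 9.91, 8.64 and 8.16 CPM at 20 µg/mL, 10.9, 10.9 and 8.92 at 100 and 7.50, 7.44 and 7.85 at 500, beside 7.16, 6.11 and 7.23 in vehicle. The middle dose had the highest mean of the 3, behind only Poria at 500 and 100 µg/mL among the 20 groups, and exceeded vehicle by 0.59 ± 0.11 (adjusted p = 0.000127), whereas 500 µg/mL did not pass (0.15, adjusted p = 0.33). ICAM1 likewise was higher than vehicle at 100 µg/mL (0.25 ± 0.037, adjusted p = 2.41e-06) and did not pass at 500 (0.07, adjusted p = 0.145). The difference between 100 and 500 µg/mL was not tested. At 500 µg/mL of licorice 1 of the 9 genes was higher than vehicle and 3 were lower, beside 32.4% (16.7% higher and 15.7% lower) of all genes called. TNFAIP3 was lower with -0.40 ± 0.047 (adjusted p = 1.54e-09), and this call held without any 1 of the 6 libraries compared. The other 3 calls did not. NFKBIA (-0.14) missed it without Vehicle replicate 3 (adjusted p = 0.102) or Licorice 500 replicate 3 (0.0546). NFKB2 (0.17) missed it without Vehicle replicate 1 (adjusted p = 0.0675), Vehicle replicate 2 (0.0733) or Licorice 500 replicate 1 (0.064). RELB (-0.30, adjusted p = 0.049) missed it without any 1 of the 3 vehicle libraries (adjusted p = 0.0934, 0.102 and 0.0826) and became -0.14 without Licorice 500 replicate 1 (adjusted p = 0.447). In the same libraries the summed hepatocyte markers ran from 52162 to 53888 CPM at 500 µg/mL of licorice, beside 67174 to 69029 at 20 and 63647 to 65958 in vehicle. The fibroblast and stellate sum, nearly all ACTA2, ran from 50.9 to 55.1 CPM at 500 µg/mL, beside 65.5 to 68.9 at 20 and 64.4 to 67.4 in vehicle. The blood cell sum ran from 1524 to 1714 CPM at 500 and from 1596 to 1719 at 20, both above vehicle (1326 to 1474). The part of these lists in the results was not tested.

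Angelica and peony shared a fall of NFKBIA over dose. In angelica NFKBIA measured 123, 116 and 137 CPM at 20 µg/mL and 104, 111 and 102 at 500, and in peony 119, 120.3 and 124 and 101, 99.5 and 100.0. The doses did not overlap in either extract. NFKBIA was the 1 gene of the 9 called in the angelica trend (-0.24 ± 0.042, adjusted p = 0.000272), beside 1.22% (0.684% lower) of all genes. It was also the 1 gene called in the peony trend (-0.27 ± 0.043, adjusted p = 1.69e-05), beside 3.49% (1.7% lower) of all genes. At 20 µg/mL NFKBIA was compared with vehicle: angelica was higher by 0.16 ± 0.042 (adjusted p = 0.00474), a call lost without Angelica 20 replicate 3 (adjusted p = 0.157), and peony at 20 µg/mL did not pass (0.11, adjusted p = 0.0774). With only the libraries of the 2 groups fitted, the fall of NFKBIA in angelica did not pass (adjusted p = 0.175), at a nearly equal size of -0.25. Besides NFKBIA and BIRC3, the trends of the other 7 genes ran from 0.03 (NFKB2) to 0.65 (CXCL2) in angelica and from -0.31 (CXCL2) to 0.08 (CXCL8) in peony, and none passed.

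BIRC3 did not pass over dose in either of these extracts. In angelica it measured 7.22, 6.75 and 7.34 CPM at 20 µg/mL and 9.79, 9.06 and 9.26 at 500, and in peony 7.00, 6.57 and 6.88 and 9.75, 8.58 and 7.96. The trends of 0.40 ± 0.11 and 0.37 ± 0.11 had adjusted p = 0.0518 and 0.0562. With no filter on low counts both passed (adjusted p = 0.00972 and 0.0188), and with only the libraries compared in the fit neither did. Against vehicle, BIRC3 passed at 500 µg/mL of angelica (0.46 ± 0.11, adjusted p = 0.00233). It passed at 500 µg/mL of peony (0.36 ± 0.11, adjusted p = 0.0154), but not without Vehicle replicate 2 (0.101) or Peony 500 replicate 1 (0.149). At that dose 4 of the 9 genes were higher and 0 lower in angelica, beside 18.9% (9.51% higher) of all genes, and 3 higher and 2 lower in peony, beside 19.7% (9.68% higher and 9.98% lower). ICAM1 and NFKB2 were higher in both, ICAM1 by 0.29 ± 0.037 and 0.14 ± 0.037 and NFKB2 by 0.23 ± 0.055 and 0.24 ± 0.055. The call of NFKB1 in angelica (0.12, adjusted p = 0.0416) was lost without Vehicle replicate 1 (0.127), Vehicle replicate 2 (0.155), Angelica 500 replicate 1 (0.107) or Angelica 500 replicate 3 (0.208). In peony TNFAIP3 (-0.16) and NFKBIA (-0.17) were lower, NFKBIA with adjusted p = 0.0517 without Vehicle replicate 3.

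In Atractylodes and ginseng edgeR called 0 of the 9 genes over dose, beside 0.0497% and 0.149% of all genes. At an unadjusted p under 0.05 there were 4 of the 9 genes in Atractylodes and 2 in ginseng. DESeq2 called 0 in each, but gave an adjusted p to only 5 of the 9 genes in Atractylodes and 8 in ginseng. The 9 trends ran from -0.24 (RELB) to 0.10 (CXCL8) in Atractylodes and from -0.12 (NFKBIA) to 0.22 (BIRC3) in ginseng. NFKBIA measured 110.4, 105 and 109 CPM at 20 and 102, 102 and 97.9 at 500 µg/mL of Atractylodes, and 120.2, 119.7 and 118 and 110.3, 109 and 111 in ginseng. The trends of NFKBIA, -0.10 ± 0.043 and -0.12 ± 0.043, were below 0 in both but did not pass (adjusted p = 0.883 and 0.65). Against vehicle at 500 µg/mL, 0 of the 9 genes were called by edgeR in Atractylodes, beside 0.889% of all genes, with 2 at an unadjusted p under 0.05. DESeq2 called 1 there, NFKBIA. In ginseng at 500 µg/mL 1 gene was called, beside 10.2% (4.66% higher) of all genes: ICAM1 measured 106, 110.3 and 107 CPM, above all vehicle libraries (0.19 ± 0.037, adjusted p = 0.000389).

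The dose trends of the 6 extracts differed for 8 of the 9 genes in a joint test of equal trends, beside 35.1% of all genes. The adjusted p was 3.93e-21 for ICAM1, 2.9e-11 for NFKB2, 7.36e-08 for RELB, 2.075e-07 for TNFAIP3 and 3.66e-07 for BIRC3. It was 9.16e-05 for CXCL8, 0.00106 for NFKBIA and 0.00348 for NFKB1, which did not pass with no filter on low counts (0.0686). CXCL2, with trends from -0.31 in peony to 0.65 in angelica, did not pass (adjusted p = 0.115). For NFKBIA the trends all had the same sign, from -0.38 in Poria to -0.10 in Atractylodes, so the test concerns their size.

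Poria and Atractylodes at 500 µg/mL, which share a set, differed in 7 of the 9 genes, 6 higher and 1 lower in Poria, beside 42.9% (21.8% higher and 21.1% lower) of all genes. NFKBIA measured 82.6, 79.5 and 85.2 CPM in Poria and 102, 102 and 97.9 in Atractylodes, a difference of -0.29 ± 0.044 (adjusted p = 2.22e-07). The difference was 0.89 ± 0.037 in ICAM1, 0.96 ± 0.11 in RELB, 0.84 ± 0.11 in BIRC3, 0.68 ± 0.055 in NFKB2 and 0.64 ± 0.11 in CXCL8. These 5 genes and NFKBIA did not overlap between the extracts, as was so for 51.4% of all genes, and their calls held without any 1 of the 6 libraries. The call of TNFAIP3 (0.12, adjusted p = 0.0315) was lost without Poria 500 replicate 1 (0.159), Atractylodes 500 replicate 2 (0.173) or Atractylodes 500 replicate 3 (0.0566). NFKB1 (0.05) and CXCL2 (0.20) did not pass. Levels in vehicle do not enter these differences.

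Licorice and ginseng at 500 µg/mL differed in 3 of the 9 genes, all lower in licorice, beside 22.4% (10.7% lower) of all genes. TNFAIP3 measured 42.4, 45.5 and 41.9 CPM in licorice and 52.5, 56.0 and 55.1 in ginseng, without overlap (-0.33 ± 0.047, adjusted p = 1.91e-07). NFKB1 was lower with -0.15 (adjusted p = 0.00882), but not past the threshold without Licorice 500 replicate 1 (0.0829) or Ginseng 500 replicate 2 (0.054). ICAM1 was lower with -0.12 (adjusted p = 0.011), and not past it without Licorice 500 replicate 3 (0.113) or Ginseng 500 replicate 2 (0.0669). The other 6 genes did not pass, among them BIRC3 (-0.12), CXCL8 (0.22) and CXCL2 (0.52). RELB passed without Licorice 500 replicate 2 (0.0402) or 3 (0.0412), and CXCL2 without Licorice 500 replicate 1 (0.0347) or Ginseng 500 replicate 1 (0.0471). With all libraries RELB (-0.31, interval -0.55 to -0.06) had adjusted p = 0.0683 and NFKBIA (-0.11, interval -0.19 to -0.02) 0.0673. For NFKB2 the difference was 0.04 with an interval of -0.07 to 0.15.

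Angelica and peony at 500 µg/mL differed in 3 of the 9 genes, all higher in angelica, beside 6.17% (3.59% higher) of all genes. CXCL2 measured 1.101, 1.70 and 1.31 CPM in angelica and 0.962, 0.539 and 0.745 in peony. The groups did not overlap, on 32 to 41 counts in the libraries of angelica and 14 to 30 in those of peony, and the difference was 0.83 ± 0.22 (adjusted p = 0.0112). It did not pass without Angelica 500 replicate 2 (0.128) or Peony 500 replicate 2 (0.118). TNFAIP3 was higher by 0.20 ± 0.046 and ICAM1 by 0.14 ± 0.037, and without Angelica 500 replicate 2 their adjusted p was 0.0592 and 0.0565, so that 0 of the 9 genes passed without that library. The differences of the other 6 genes ran from -0.01 (NFKB2) to 0.14 (RELB). CXCL1 was also highest in angelica at 500 µg/mL, at 0.179, 0.165 and 0.367 CPM on 4 to 9 counts, but overlapped peony at 500 µg/mL (0.192, 0.0770 and 0.157).

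Wortmannin blocks the kinase upstream of AKT, which has been linked to NF-kB activity in several cell types. In the wortmannin libraries 4 of the 9 genes were higher than vehicle and 1 was lower, a share close to the 46.3% (22.4% higher and 24% lower) of all genes called. NFKB1 measured 36.3, 34.5 and 38.0 CPM, below all vehicle libraries (43.6, 43.1 and 46.6) and the lowest mean of the 20 groups, a change of -0.29 ± 0.045 (adjusted p = 2.54e-07). ICAM1 measured 119.8, 118 and 122 CPM, above all vehicle libraries (0.34 ± 0.037, adjusted p = 3.54e-11). TNFAIP3 measured 61.9, 65.8 and 69.3 CPM, its highest mean of all groups (0.20 ± 0.045, adjusted p = 0.000201). NFKB2 was higher by 0.18 ± 0.056 (adjusted p = 0.00745), so that the precursor genes of p50 and p52 were called in opposite directions. With no filter on low counts NFKB2 did not pass (adjusted p = 0.101). RELB was higher by 0.38 ± 0.11 (adjusted p = 0.00433). Without Wortmannin replicate 3 neither NFKB2 nor RELB passed (adjusted p = 0.062 and 0.0544), which left 3 calls. BIRC3 (0.19) did not pass with all libraries and did without Wortmannin replicate 1 (adjusted p = 0.0263). NFKBIA (0.08) did not pass either, and did without Wortmannin replicate 1 (0.0482) or Vehicle replicate 3 (0.0454). CXCL8 measured 5.05, 4.76 and 4.45 CPM and overlapped vehicle (-0.08, 95% interval -0.30 to 0.14). CXCL2 did not pass either (0.38, 95% interval -0.04 to 0.80). The summed blood cell markers ran from 2098 to 2442 CPM in wortmannin, again nearly all LYZ, beside 1326 to 1474 in vehicle, and PTPRC had 0 counts. The hepatocyte sum ran from 71232 to 73637 CPM, beside 63647 to 65958 in vehicle, and the fibroblast and stellate sum from 51.8 to 54.9, beside 64.4 to 67.4. The part of these lists in the wortmannin results was not tested.

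**Figure D3:**
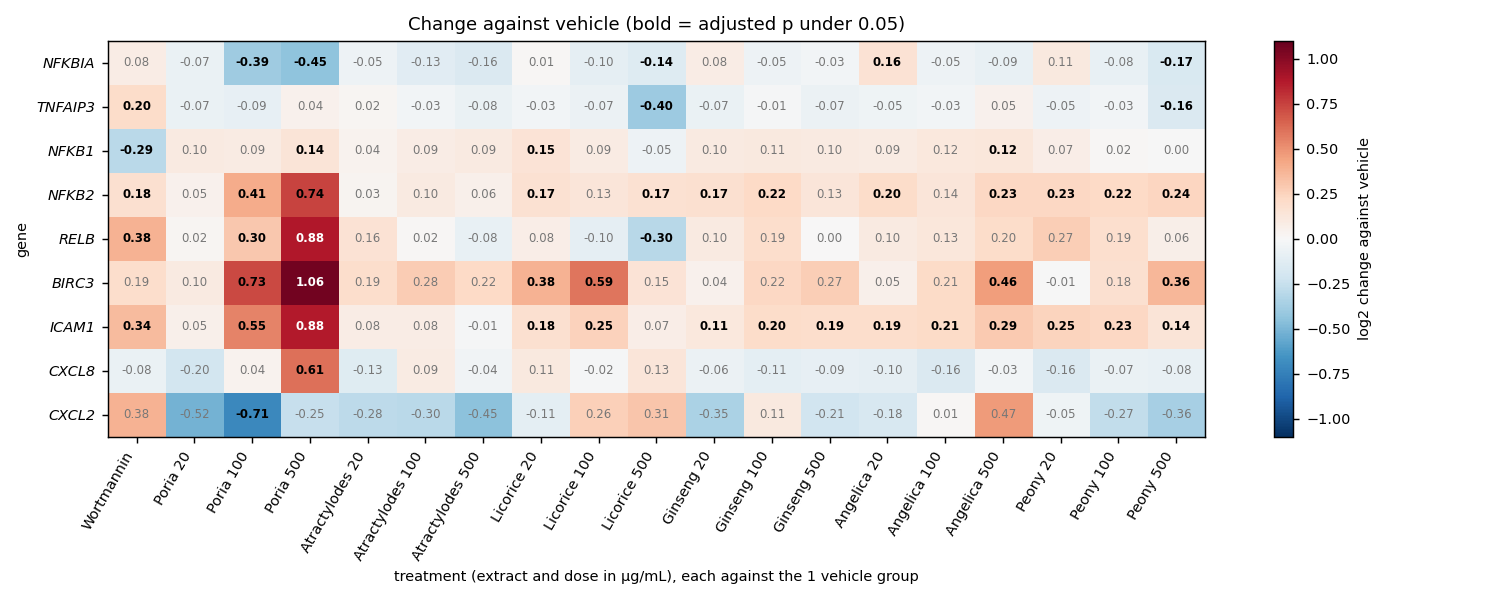
Log2 change against vehicle (colour and number) of 9 genes (rows) in wortmannin and 18 extract groups (columns), bold where the adjusted p is under 0.05. ICAM1 and NFKB2 are bold in most columns, CXCL8 in Poria 500 alone, and the row of CXCL2 in Poria 100 alone.

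Below 500 µg/mL the 12 extract groups gave 108 tests of the 9 genes against vehicle, of which 22 were higher and 2 lower. Both lower calls were in Poria at 100 µg/mL. Of all genes, from 1.08% in Atractylodes at 20 µg/mL to 30.5% in Poria at 100 were called in these groups, in either direction. Of the 22, 9 were ICAM1 and 7 NFKB2. Over all 18 extract groups ICAM1 was higher than vehicle in 13 and NFKB2 in 11, and neither was lower in any. In these 18 groups the share of all genes called in either direction ran from 0.889% in Atractylodes at 500 µg/mL to 47.6% in Poria at 500. The calls of ICAM1 and NFKB2 spanned the sets of licorice and ginseng and of angelica and peony at doses down to 20 µg/mL. Neither gene was called in Atractylodes or in Poria at 20 µg/mL. ICAM1 in peony, for example, measured 115, 106 and 114 CPM at 20 µg/mL, 111, 108 and 112 at 100 and 104, 105 and 104 at 500, all above the vehicle libraries, and its trend over dose of -0.10 ± 0.037 did not pass (adjusted p = 0.131). Because these comparisons share the vehicle group and cross sets, set and extract cannot be told apart there.

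By extract, at 20 µg/mL the calls were 4 in licorice (beside 11.2% and 5.89%), 2 in ginseng (13.9% and 6.72%), 3 in angelica (24.3% and 12.1%) and 2 in peony (15.8% and 7.57%), where each percentage is the share of all genes called and, after it, the share called higher. All these calls were higher. At 100 µg/mL they were 2 in licorice (16.4% and 8.76%), 2 in ginseng (8.53% and 4.13%), 1 in angelica (14.6% and 6.97%) and 2 in peony (10% and 4.78%), again all higher. In Atractylodes edgeR called 0 at 20 µg/mL (1.08% of all genes) and 0 at 100 (1.35%), with 1 and 3 at an unadjusted p under 0.05. At each of these doses DESeq2 called 0 of the 8 genes to which it gave an adjusted p. The calls of NFKB2 in licorice and in ginseng at 20 µg/mL, of NFKB1 in licorice and of ICAM1 in ginseng at 20 µg/mL were each lost without any 1 of 4 of the 6 libraries compared, with adjusted p up to 0.174, 0.13, 0.0885 and 0.137. Vehicle replicate 2 was among those 4 libraries in all of these, and the other libraries were Vehicle replicate 1 for NFKB2 and NFKB1, Vehicle replicate 3 for ICAM1, Licorice 20 replicates 2 and 3, and Ginseng 20 replicates 1 and 2. BIRC3 in licorice at 20 µg/mL (0.38) was lost without Vehicle replicate 2 (0.115) or Licorice 20 replicate 1 (0.11), and NFKB2 in angelica at 20 µg/mL (0.20) without Angelica 20 replicate 3 (0.106).

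The wider pathway was followed through 103 further genes listed by role, of which 73 passed the filter on low counts. Over the doses of Poria 34 of the 73 rose and 6 fell, with a median of 0.17, beside the 22.3% of all genes that rose and 21.2% that fell. In licorice 11 rose and 14 fell, beside 21.3% of all genes called in either direction. In wortmannin 18 were higher and 17 lower, beside 46.3% of all genes, a share close to that of the 73. In angelica 1 rose, beside 1.22%, and in peony 3 rose, beside 3.49%. In Atractylodes and ginseng edgeR called 0 of the 73, beside 0.0497% and 0.149%.

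Among the receptors in Poria 4 of 11 rose and 1 fell, a share close to the 43.5% of all genes called (22.3% higher and 21.2% lower). TNFRSF12A, the receptor for TWEAK, rose most, from 22.9 ± 2.16 CPM at 20 µg/mL to 56.6 ± 4.45 at 500 (1.31 ± 0.097, adjusted p = 3.55e-16). The others were TNFRSF1A (0.59 ± 0.038), a receptor for tumour necrosis factor, LTBR (0.41 ± 0.046) and CD40 (0.37 ± 0.11), receptors of the non-canonical branch, and IL1R1 fell (-0.16 ± 0.05). Of the 7 kinase genes tested 5 rose, beside 22.3% of all genes. They were IKBKG (1.04 ± 0.052), MAP3K14 (0.71 ± 0.098), which encodes NIK, TBK1 (0.32 ± 0.061), IKBKE (0.29 ± 0.12) and CHUK (0.27 ± 0.045), the kinase IKK alpha that acts on the NFKB2 product. IKBKG, the regulatory subunit of the IkB kinase, has the near copy IKBKGP1, so its count is uncertain. TNFRSF1A, LTBR, CD40, IL1R1, MAP3K14, TBK1, IKBKE, CHUK and TAB2 are named here after their values were seen.

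Downstream in Poria, the early response gene IER3 rose from 63.2 ± 2.45 to 235 ± 19.0 CPM (1.90 ± 0.06, adjusted p = 1.72e-30), more than any of the 9 tested genes above. BCL2A1, an inhibitor of apoptosis, rose by 1.32 ± 0.39 at under 1 CPM. The falls were of COMMD1 (-0.45 ± 0.083), which limits NF-kB at chromatin, TNFSF10 (-0.44 ± 0.062), the death ligand TRAIL, NFKBIZ (-0.23 ± 0.066), a nuclear IkB protein, and TAB3 (-0.17 ± 0.054), an adaptor of the kinase TAK1, besides IL1R1 and TAB2. CCL20, a chemokine for lymphocytes and dendritic cells, was higher than vehicle at 500 µg/mL in all 6 extracts. It measured 45.9 ± 1.303 CPM in vehicle and 154 ± 8.61 in Poria, 85.7 ± 3.17 in licorice, 83.3 ± 4.65 in angelica, 78.6 ± 3.13 in ginseng, 66.3 ± 11.9 in Atractylodes and 63.2 ± 2.31 in peony, with changes of 1.75 ± 0.1 to 0.46 ± 0.1. These comparisons share the vehicle libraries. Over dose, within a set, CCL20 was called in Poria (1.03 ± 0.098) and in none of the other 5 extracts.

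**Figure D4:**
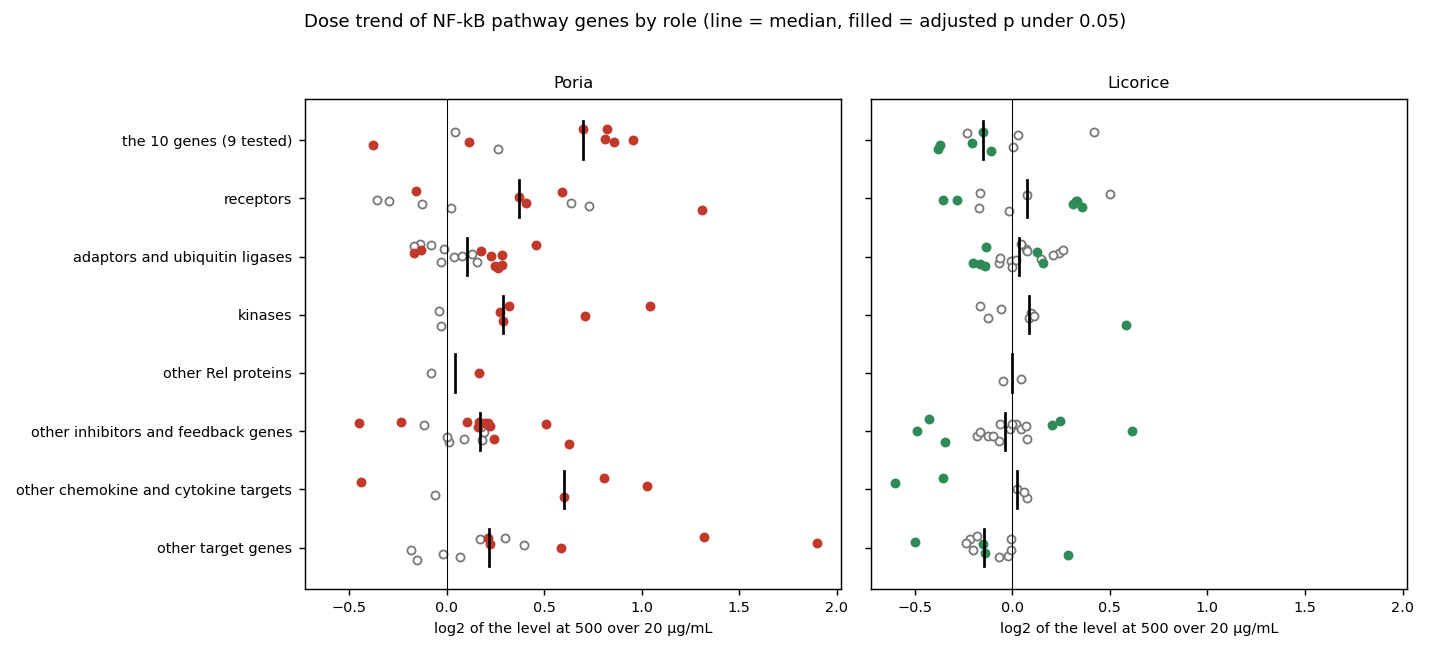
Dose trend (log2 ratio of 500 to 20 µg/mL, horizontal axis) of the 9 tested genes and of 73 further pathway genes by role (rows), in Poria and licorice, with 1 point per gene, filled where the adjusted p is under 0.05, and the median as a line; vertical scatter within a row has no meaning. In Poria 34 of the 73 rose and 6 fell, and in licorice 11 rose and 14 fell.

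In licorice the other inhibitors and feedback genes of the list moved both ways over dose. Of 18, 3 were higher and 3 lower, beside 21.3% of all genes called in either direction. NFKBIZ fell by 0.49 ± 0.066 on the log2 scale and CYLD, a deubiquitinase that limits the pathway as TNFAIP3 does, fell by 0.42 ± 0.07. CX3CL1, a membrane-bound chemokine, fell from 100.0 ± 3.05 to 65.9 ± 2.37 CPM, and CD83 was lower at under 2 CPM (-0.50 ± 0.17, adjusted p = 0.0394). NFKBID (0.61 ± 0.18), another nuclear IkB protein, IKBKG (0.58 ± 0.052), TNFRSF12A (0.36 ± 0.1) and TNFRSF1A (0.33 ± 0.038) rose. IKBKG, TNFRSF12A and TNFRSF1A were thus called higher over dose in Poria as well. Of the non-canonical subunits, both higher in Poria, RELB was called lower in licorice and NFKB2 did not pass (0.00 ± 0.056). That call of RELB was lost without Licorice 500 replicate 1 (adjusted p = 0.274).

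Against vehicle at 500 µg/mL, 29 of the 73 pathway genes were higher and 10 lower in Poria, beside 47.6% of all genes called. Besides CCL20, the largest rises there were IER3 (1.88 ± 0.06), BCL2A1 (1.51 ± 0.39) and TNFRSF12A (1.35 ± 0.096). The largest falls were TNFSF10 (-0.48 ± 0.061), IRF1 (-0.41 ± 0.091), a transcription factor of interferon responses, COMMD1 (-0.40 ± 0.083) and NFKBIZ (-0.32 ± 0.065). In licorice 17 were higher and 14 lower, beside 32.4%. IKBKG (0.65 ± 0.052), TNFRSF1A (0.46 ± 0.038) and TNFRSF12A (0.44 ± 0.1) were higher there, and CX3CL1 (-0.73 ± 0.052), CD83 (-0.62 ± 0.16), TNFSF10 (-0.53 ± 0.06) and NFKBIZ (-0.52 ± 0.065) lower.

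The other 4 extracts gave fewer calls at this dose. In peony 14 were higher and 4 lower, beside 19.7% of all genes. Besides CCL20, TRAF1 (0.67 ± 0.21, at 1.51 CPM beside 0.966 in vehicle), the pseudokinase TRIB3 (0.37 ± 0.054) and IKBKG (0.36 ± 0.053) were higher. BCL3 (-0.36 ± 0.081), REL (-0.33 ± 0.11), which encodes the subunit c-Rel, ZC3H12A (-0.28 ± 0.075), a nuclease that degrades inflammatory mRNAs, and TRAF3 (-0.18 ± 0.049) were lower in peony. In angelica 7 were higher and 1 lower, beside 18.9%: the cytokine IL32 (0.42 ± 0.065), IKBKG (0.24 ± 0.053) and the ubiquitin ligase BIRC2 (0.21 ± 0.054) followed CCL20, and TAB2 (-0.12 ± 0.045, adjusted p = 0.0495) was lower. In ginseng 3 were higher and 0 lower, beside 10.2%: CCL20, BIRC2 (0.26 ± 0.055) and IL32 (0.19 ± 0.065, adjusted p = 0.0481). In Atractylodes CCL20 was higher and ZC3H12A lower (-0.31 ± 0.075), beside 0.889%. All 6 comparisons share the 3 vehicle libraries.

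Wortmannin gave larger changes in some other pathway genes than in the 9 tested above. TNFSF10 was at 41.1 ± 1.27 CPM beside 15.7 ± 0.704 in vehicle (1.39 ± 0.053), and SOD2, the mitochondrial superoxide dismutase and a known NF-kB target, at 428 ± 11.4 beside 263 ± 6.30 (0.70 ± 0.038). TNFAIP2 (1.39 ± 0.35) and the adaptor TRAF1 (1.09 ± 0.2) were also higher, at low levels. TNFAIP2 was at 1.18 CPM beside 0.449 in vehicle, and TRAF1 at 2.05 beside 0.966. BCL3 (-0.64 ± 0.084), a nuclear partner of p50 and p52, the receptor TNFRSF11A (-0.63 ± 0.085) and the protease PLAU (-1.14 ± 0.29) were lower. PLAU was at 0.513 ± 0.289 CPM beside 1.12 in vehicle. BCL2A1 was at 0.101 ± 0.0616 CPM beside 0.258 ± 0.134 in vehicle, close to the level of 3 counts, and its call (-1.32 ± 0.56) was narrow (adjusted p = 0.0484). TNFSF10 was thus called in opposite directions in wortmannin and over the doses of Poria. Angelica and peony called few pathway genes over dose, TRAF3 in angelica (0.21 ± 0.049), and TNFSF10 (0.27 ± 0.059), TAB3 (0.22 ± 0.054) and IL1R1 (0.17 ± 0.049) in peony, all higher.

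Likeness over the 20 group means of log2 CPM is given as a description, since the groups share a vehicle, sets and libraries. For NFKB2 and ICAM1 Pearson's r was 0.93 over 20 groups and 0.67 over the 17 groups without Poria, and for RELB and ICAM1 it was 0.86 and 0.63. For NFKB2 and CXCL8 it was 0.74 with Poria and -0.18 without, so that this likeness was present only with the Poria groups. TNFAIP3 and RELB stood at 0.61 with Poria and 0.81 without it. NFKBIA and BIRC3 ran opposite, at -0.83 and -0.55. Among 10460 genes with at least 5 CPM, those most like CXCL8 included EPS8 (0.910), GMFB (0.900), DIS3 (0.890) and MAPRE2 (0.888), and among 10459 those most like NFKBIA were GIGYF1 (0.926), CUTA (0.924), CNPY3 (0.908), TFEB (0.905) and ISOC2 (0.904). None of these 9 genes is on the pathway lists.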

How the data were processed

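The kit preserved strand and reads were 100 bp pairs, per the labels' protocols. The deposited values are expected counts per gene, which the authors made with RSEM 1.3.3 after FastQC 0.11.9, Trim Galore 0.6.5 and STAR 2.7.3a on hg38, per the submitters' processing notes; the annotation release is not given in the sources used here. Of the values above 0, 76.1% were whole, and all were rounded. Of 270 columns 60 were used and 210 were not used here. Of 60675 genes 42412 had a symbol.

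Genes were filtered with edgeR's filterByExpr (minimum count 10, total 15), which left 16093. The quasi-likelihood test of edgeR 4.0.16 in R 4.3.3, with limma 3.58.1, was fitted over all 60 libraries with 1 mean per group and TMM scaling (factors 0.926 to 1.03), leaving 40 residual degrees of freedom. CPM values are TMM-scaled, the prior count was 0.125, and adjusted p under 0.05 over all genes was a call. The dose trend is 500 minus 20 µg/mL, so 100 µg/mL has no weight in it. Equal trends were tested jointly over the 6 extracts. The alternatives were DESeq2 1.42.0, its size factors, a filter at 1 CPM or none, only the libraries compared, a regression on log dose, a replicate block, and each library left out. The test was checked on simulated counts. The 10 genes and the gene lists were chosen with earlier results of these data known. The 9 tested genes are given in each comparison, as values, ranges or in the plots, and CXCL1 by its levels; of the other pathway genes up to 4 per direction with the largest called change were named in wortmannin, each dose trend and each 500 µg/mL group, and other names are marked where they appear. Likeness used genes of at least 5 CPM. For CXCL8, 1 of the 5 genes that the likeness rule names is not reported here.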

Additional observations from a re-analysis of the deposited data

Results flagged for a closer look

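In a joint test over the 6 extracts, the dose trend (500 minus 20 µg/mL) differed between extracts for 8 of the 9 tested genes, beside 35.1% of all genes. The adjusted p from edgeR's quasi-likelihood test was 3.93e-21 for ICAM1, where the trends ran from -0.11 in licorice to 0.82 in Poria on the log2 scale. For NFKB2 it was 2.90e-11, with trends from -0.04 in ginseng to 0.70 in Poria. RELB had 7.36e-08, with -0.38 in licorice and 0.86 in Poria, and TNFAIP3 had 2.075e-07, with -0.37 in licorice and 0.11 in Poria. BIRC3 had 3.66e-07, from -0.23 in licorice to 0.96 in Poria, and CXCL8 had 9.16e-05, from -0.02 in ginseng to 0.81 in Poria. NFKBIA had 0.00106, from -0.38 in Poria to -0.10 in Atractylodes, and NFKB1 had 0.00348, from -0.21 in licorice to 0.05 in Atractylodes. With no filter on low counts NFKB1 did not pass (adjusted p = 0.0686). The test concerns the 6 trends together and does not say which pair of extracts differs.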

How the results depend on the processing

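No call changed sign under any alternative run. With only the libraries compared in the fit, licorice called 3 of the 9 genes over dose, angelica 0, and the doses below 500 µg/mL 13 against vehicle in place of 24. A regression on log dose gave 3 for licorice, 0 for angelica and 2 for peony. With no filter on low counts the calls were 2 in the angelica trend, 2 in the peony trend, 2 in licorice and 3 in peony at 500 µg/mL against vehicle, 1 between licorice and ginseng and 1 between angelica and peony. The joint test of equal trends then lost NFKB1 (adjusted p = 0.0686). A filter at 1 CPM gave 2 in the angelica trend and 1 in Atractylodes at 500 µg/mL, as did DESeq2's Wald test (2 and 1). Without single libraries the calls ranged from 3 to 7 in wortmannin, 6 to 7 in the Poria trend, 3 to 5 in the licorice trend, 1 to 2 in the peony trend, 2 to 4 in licorice, 3 to 4 in angelica and 4 to 5 in peony at 500 µg/mL, 17 to 25 at the lower doses, 6 to 7 between Poria and Atractylodes, 1 to 4 between licorice and ginseng, and 0 to 3 between angelica and peony. Calls over all genes moved by more than 1.5 times in the weaker comparisons. In the Atractylodes trend 8 calls became 90 with no filter, 16 with only the libraries compared, 15 by DESeq2 and 4 with the block in the set. In the ginseng trend 24 became 114 with no filter, 39 by DESeq2 and 13 by log dose; in the angelica trend 196 became 315 with no filter, 53 with only the libraries compared and 96 by log dose; in the peony trend 561 became 156 with only the libraries compared and 350 by log dose. Against vehicle with no filter, Atractylodes went from 143 to 331 at 500 µg/mL, from 217 to 383 at 100 and from 174 to 360 at 20. With only the libraries compared, Atractylodes went from 143 to 86 at 500 µg/mL and from 217 to 36 at 100, ginseng at 100 from 1373 to 334, Poria at 20 from 611 to 201, licorice at 20 from 1798 to 1053, angelica at 20 from 3914 to 2285, peony at 20 from 2537 to 1167, and angelica against peony from 993 to 1540. Without single libraries the calls over all genes ranged from 0 to 5 in the Atractylodes trend, 8 to 30 in the ginseng trend, 110 to 217 in the angelica trend and 319 to 503 in the peony trend, and from 12 to 364 in Atractylodes at 500 µg/mL against vehicle. The cause was not tested. Replicate numbers did not pair the samples: same-numbered deviations correlated from -0.237 to 0.205, 0 of 28 comparisons had every pair over 0.1, and in 5 every sample correlated best with its own number. A replicate block over all libraries changed no call of the 9 genes, and within a set it gave 2 calls in the angelica trend and 2 in the peony trend, added NFKBIA between licorice and ginseng (adjusted p = 0.0445), and lost TNFAIP3 in the Poria trend (0.0718) and RELB in the licorice trend (0.0571). CXCL1 could not be tested at its depth, and CXCL2, at 12 to 41 counts, has wide intervals.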

Other observations

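The immediate early genes of the AP-1 family and their companions, which encode transcription factors induced by growth and stress signals, are a group outside the NF-kB lists. Over the doses of Poria all 11 rose, with a median log2 change of 1.18, beside 22.3% of all genes. FOS measured 1.01 CPM at 20 µg/mL and 7.32 at 500 (log2 change 2.84), and EGR1 measured 18.9 and 125.5 (2.73). In licorice 5 of the 11 rose and 0 fell over dose, beside 21.3% of all genes called in either direction. In wortmannin 4 were higher and 2 lower than vehicle, beside 46.3%, and in angelica 1 rose, beside 1.22%. The group was chosen with results of these data known, and FOS and EGR1 are named after their values were seen.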
